A study of Sus scrofa with 6 samples.

Results

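The mitochondrial fusion and fission genes were examined in porcine oocytes that had matured with or without heat stress. They were chosen by name from the table of 29861 genes, by a rule that uses no measured value, and all 9 were found: MFN1, MFN2, OPA1, OMA1, DNM1L, MFF, MIEF1, MIEF2 and FIS1. RNA from 6 samples was sequenced, with 2 samples each of control oocytes, oocytes under heat stress and heat-stressed oocytes given nicotinamide mononucleotide (NMN), a precursor of NAD+. The oocytes came from ovaries of slaughtered pigs of no stated breed, age or genotype, and were pooled, so that each value is an average over many cells and animals. All 3 groups are labelled as germinal vesicle (GV) oocytes at 24 h, whereas the methods speak of metaphase II, and the stage was not resolved here. The heat-stressed and NMN groups spent the first day of maturation at the raised temperature and the control group did not. Whether the 2 samples of a group came from separate cultures is not stated, so the P-values below measure the spread between these samples, which may be technical.

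Mitochondria join and divide all the time, and large GTPases of the dynamin family do both. MFN1 and MFN2, the mitofusins, tether and fuse the outer membranes, and OPA1 then fuses the inner membranes and holds the cristae together. DNM1L, also called DRP1, is drawn from the cytosol to the outer membrane by the receptors MFF, MIEF1, MIEF2 and FIS1, assembles around the organelle and constricts it. OMA1 is an inner membrane metalloprotease that is switched on by stress and cuts OPA1, which stops fusion. The oocyte carries a very large stock of mostly small round mitochondria, which it hands on to the embryo.

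MFN1, OPA1, DNM1L and the protease OMA1 carry catalytic sites by which this machinery works, and the coding sequence around each of these sites is shown. It is taken from the longest annotated coding sequence of each gene. The values are per gene and do not tell which transcript was measured. The capitals mark the 8 codons of the GTP-binding P loop in the 3 GTPases and the 5 codons of the zinc-binding site in OMA1. Each site was found once, from coding base 244 in MFN1, 1048 in OPA1, 94 in DNM1L and 979 in OMA1. The sequences are of the transcript strand in the Sscrofa11.1 build.
MFN1: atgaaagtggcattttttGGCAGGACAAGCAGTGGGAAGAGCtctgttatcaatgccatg
OPA1: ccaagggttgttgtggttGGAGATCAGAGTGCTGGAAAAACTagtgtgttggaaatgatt
DNM1L: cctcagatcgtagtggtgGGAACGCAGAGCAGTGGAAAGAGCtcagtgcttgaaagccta
OMA1: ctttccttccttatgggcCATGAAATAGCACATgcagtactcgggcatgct
The mitofusins are close relatives. The longest stretch that their transcripts share without a mismatch was 20 nt, far less than the 150 nt of a read.

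The values are FPKM, that is, fragments divided by the length of the transcript and by the size of the library, so that levels can be set side by side between genes of different length. OMA1 had the highest mean level of the 9 genes, with 6.26 FPKM over the 6 samples, followed by MFF with 5.72, MFN1 with 2.63 and OPA1 with 1.14. OMA1 lay above 95.3% of all genes in the table and MFF above 94.9%, while the core fission GTPase DNM1L, at 0.124 FPKM, lay above 63.5%. MIEF1 (0.473), MIEF2 (0.451), MFN2 (0.328) and FIS1 (0.173) were all at mean levels under 1 FPKM. MFF exceeded MFN1, MFN1 exceeded OPA1, and OPA1 exceeded MIEF1 in 6 of 6 samples. OMA1 exceeded MFF in 5 of 6 samples. MIEF1 exceeded MIEF2 in 3 of 6 samples, and FIS1 exceeded DNM1L in 3 of 6, so these neighbours could not be ordered. The transcripts thus held far more of the receptor MFF than of the other 3 receptors, and more of MFN1 than of MFN2.

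**Figure D1:**
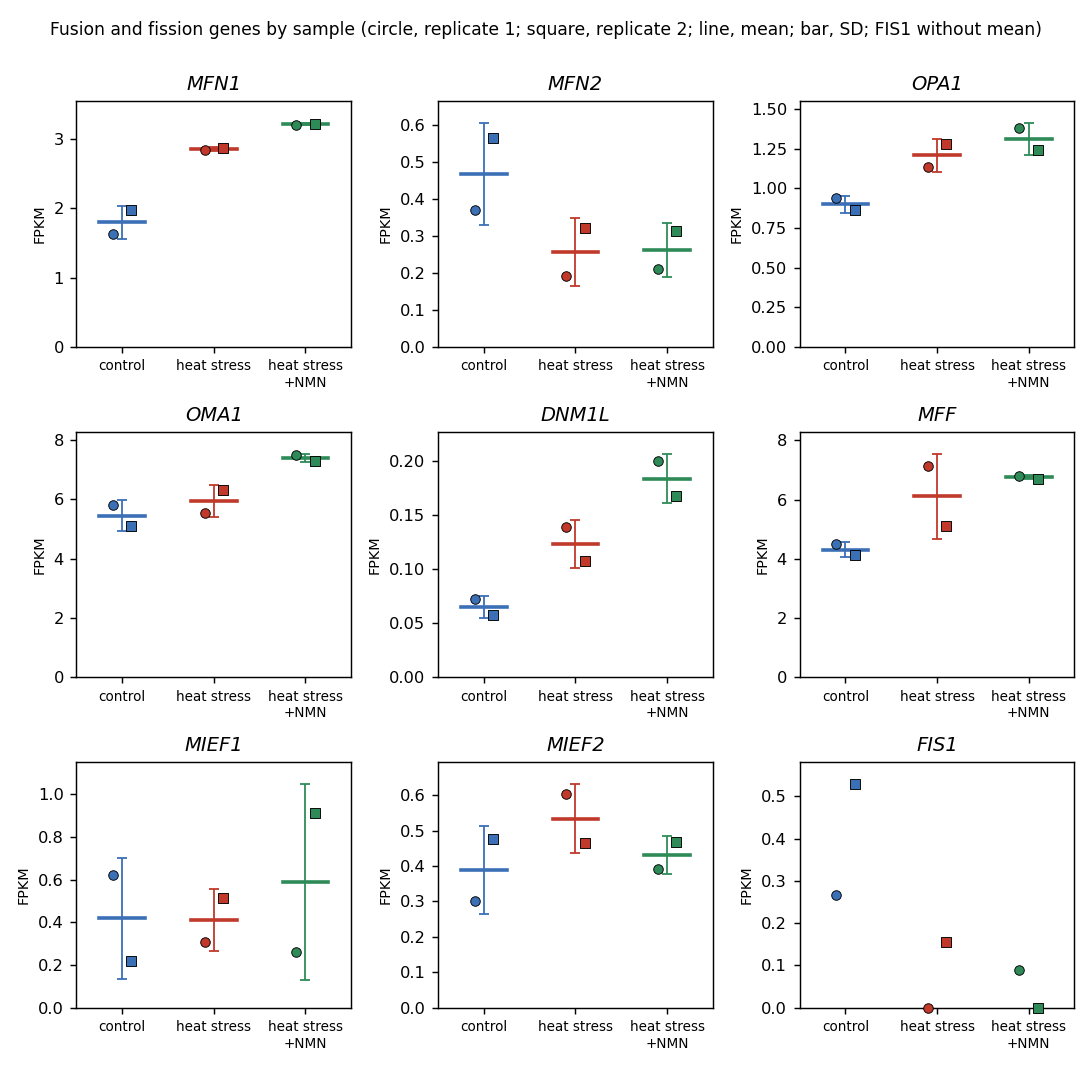
FPKM of the 9 fusion and fission genes (y axes, each from 0) in the control, heat stress and NMN groups (x axis), with circles and squares for replicates 1 and 2, lines for group means and bars for the SD (n = 2). MFN1 stands at 1.63 and 1.97 FPKM in control samples and between 2.84 and 3.22 in the other 4, and FIS1, drawn without a mean, is listed at 0 in 2 samples.

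Differences between groups were tested with limma on log2(FPKM + 1), over the 4713 genes with a mean of at least 1 FPKM, and a gene was counted as called at an unadjusted P under 0.05. On this scale the fold changes of low genes come out smaller than the ratios of their FPKM. Of the 9 genes, MFN1, OPA1, OMA1 and MFF reached that mean, and the other 5 were fitted with 11651 genes at a mean of at least 0.1 FPKM. An exact permutation test of 2 samples against 2 cannot give a two-sided P below 0.333, so none is given for single genes. In pooled oocytes, a lower level per cell and fewer cells with the transcript cannot be told apart.

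MFN1 (chr13:117404637-117441750, plus strand, 3 annotated transcripts) had the smallest P of the 4 tested members in both comparisons with control. Its levels were 1.63 and 1.97 FPKM in control, 2.84 and 2.88 under heat stress and 3.21 and 3.22 with NMN. Both control samples were the lowest and both NMN samples the highest, and no 2 groups overlapped. The mean was 1.80 ± 0.240 FPKM (SD, n = 2) in control, 2.86 ± 0.0248 under heat stress and 3.21 ± 0.0140 with NMN, which makes ratios of 1.59 for heat stress to control and 1.78 for NMN to control. Under heat stress the log2 fold change of MFN1 was 0.46 (SE 0.12) with an unadjusted P of 0.00873, but the Benjamini-Hochberg adjusted P of limma was 0.137. In NMN-supplemented oocytes MFN1 rose over control, with a log2 fold change of 0.59 (SE 0.12) and an adjusted P of 0.0294 in limma. Over 15 alternatives that adjusted P lay between 0.0277 and 0.141, and it was under 0.05 in 7 of them, whereas the unadjusted P was under 0.05 in all 15 in both comparisons. With NMN against heat stress the log2 fold change was 0.13 (95% interval -0.17 to 0.42), with an adjusted P of 0.590 in limma.

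MFN2 (chr6:72026512-72056439, plus strand, 24 annotated transcripts), which besides fusion also ties mitochondria to the endoplasmic reticulum, lay the other way. It was measured at 0.370 and 0.565 FPKM in control, 0.191 and 0.321 under heat stress and 0.209 and 0.313 with NMN. Both control samples were above the other 4, and the heat-stressed and NMN samples overlapped. The ratios of mean FPKM to control were 0.547 under heat stress and 0.559 with NMN. The log2 fold changes were -0.22 (SE 0.11) in both, with unadjusted P of 0.0918 and 0.0997 and adjusted P of 0.386 and 0.264 in limma, so neither passed. At such levels few fragments stand behind a value, and both control libraries had the highest relative depth.

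Within a library, the ratio of 2 genes does not depend on how the libraries were scaled to each other. MFN1 made up 81.5% and 77.7% of the summed mitofusin FPKM in the control samples, 93.7% and 90.0% under heat stress, and 93.9% and 91.1% with NMN. The share of MFN1 was thus higher in each of the 4 heated samples than in either control sample. As a ratio, MFN1 stood to MFN2 at 4.41 and 3.49 in control, 14.9 and 8.96 under heat stress and 15.3 and 10.3 with NMN. The heat-stressed and NMN samples overlapped in both measures.

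OPA1 (chr13:130624771-130718345, plus strand, 4 annotated transcripts of 6620 to 6780 nt) was at 0.936 and 0.860 FPKM in control, 1.13 and 1.28 under heat stress and 1.38 and 1.24 with NMN. The 2 control samples were the lowest, and the other groups overlapped. Mean levels were 0.898 ± 0.0538, 1.21 ± 0.106 and 1.31 ± 0.0997 FPKM (SD, n = 2). The log2 fold change of OPA1 was 0.22 (SE 0.12, adjusted P of 0.328 in limma) for heat stress against control and 0.28 (SE 0.12, adjusted P of 0.136) for NMN against control. Neither was called, although the second had an unadjusted P of 0.0599 and was under 0.05 in 4 of 15 alternatives. The summed FPKM of MFN1, MFN2 and OPA1, the 3 fusion GTPases, was 2.94 and 3.40 in control, 4.17 and 4.48 under heat stress and 4.79 and 4.78 with NMN, with no overlap between any groups. MFN1, at 1.63 to 3.22 FPKM, was the largest part of this sum and had no overlap itself, while MFN2 lay the other way.

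OMA1 (chr6:153882398-153950460, plus strand, 5 annotated transcripts) had levels of 5.82 and 5.09 FPKM in control, 5.56 and 6.33 under heat stress and 7.49 and 7.29 with NMN. The NMN samples were the highest, while control and heat-stressed samples overlapped. Mean levels were 5.45 ± 0.516, 5.94 ± 0.545 and 7.39 ± 0.146 FPKM (SD, n = 2). With NMN, OMA1 was called as higher than in control, by a log2 fold change of 0.38 (SE 0.12) with an unadjusted P of 0.0232, though not at an adjusted P (0.0758, limma). Against heat-stressed oocytes the log2 fold change with NMN was 0.28 (SE 0.12), with an adjusted P of 0.383 in limma. The ratio of OMA1 to its substrate OPA1 was 6.21 and 5.91 in control, 4.91 and 4.94 under heat stress and 5.43 and 5.88 with NMN. This ratio was lowest in both heat-stressed samples, and the groups did not overlap.

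**Figure D2:**
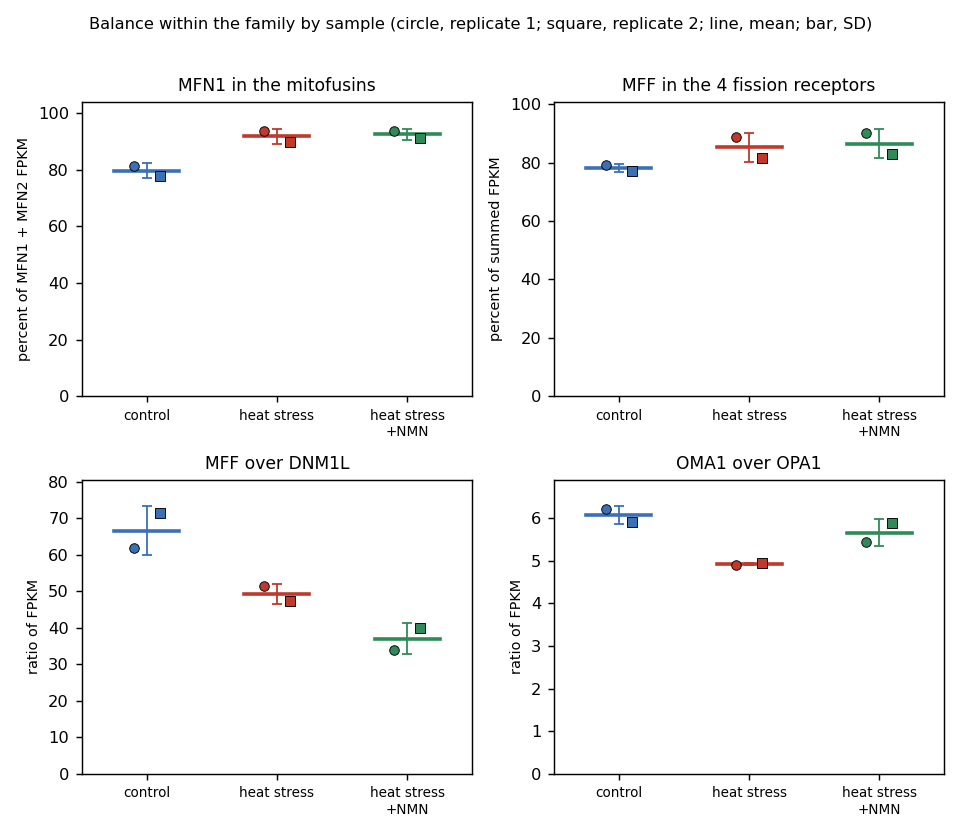
Shares and ratios within each library (y axes, from 0) for the control, heat stress and NMN groups (x axis), with circles and squares for replicates 1 and 2, lines for means and bars for the SD (n = 2). The MFN1 share of the mitofusins is 77.7% to 81.5% in control and 90.0% to 93.9% in the 4 heated samples, and MFF over DNM1L is 61.8 and 71.3 in control and 33.9 and 40.0 with NMN.

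The promoters of the fusion GTPases are shown because both control samples were the lowest for MFN1 and OPA1 and the highest for MFN2. Each is the 250 bases before the annotated start of the gene in Sscrofa11.1, on the plus strand, at chr13:117404387-117404636 for MFN1, chr6:72026262-72026511 for MFN2 and chr13:130624521-130624770 for OPA1. Capitals mark a match to 1 of the motifs searched for.
MFN1: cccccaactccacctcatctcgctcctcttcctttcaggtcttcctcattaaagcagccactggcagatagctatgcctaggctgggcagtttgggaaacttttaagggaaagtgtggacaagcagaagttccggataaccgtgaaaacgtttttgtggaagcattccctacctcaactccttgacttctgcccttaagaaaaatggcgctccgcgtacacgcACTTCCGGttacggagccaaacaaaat
MFN2: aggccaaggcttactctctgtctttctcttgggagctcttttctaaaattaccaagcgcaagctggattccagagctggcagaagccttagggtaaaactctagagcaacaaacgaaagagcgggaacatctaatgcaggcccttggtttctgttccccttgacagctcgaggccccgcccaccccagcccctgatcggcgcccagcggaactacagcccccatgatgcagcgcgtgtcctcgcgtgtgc
OPA1: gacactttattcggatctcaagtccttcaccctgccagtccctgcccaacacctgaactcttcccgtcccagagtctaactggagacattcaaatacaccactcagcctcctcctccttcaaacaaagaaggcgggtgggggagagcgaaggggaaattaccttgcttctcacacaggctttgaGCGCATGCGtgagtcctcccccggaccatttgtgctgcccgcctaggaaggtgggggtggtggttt
The motifs, read on both strands, were GAANNTTC, the paired unit that heat shock factors bind, GCGCANGCG of the respiratory factor NRF1, CCGGAAGT of the ETS factor GABPA, CCAAT and TATAAA. The MFN1 window held 1 match to the GABPA motif, on the minus strand, which 2.86% of all 19524 promoters of this length hold. The OPA1 window held 1 match to the NRF1 motif, which 6.59% of promoters hold. The letters of the heat shock unit occurred in none of the 9 members' windows and in 5.45% of all promoters. The GC content was 49.6% for MFN1, 56.4% for MFN2 and 55.6% for OPA1, against a median of 57.6% over all promoters. A match describes the letters in a window and not the binding of a factor.

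DNM1L (chr5:41571054-41636058, minus strand, 8 annotated transcripts), the GTPase that constricts the organelle, was at 0.0727 and 0.0579 FPKM in control, 0.139 and 0.108 under heat stress and 0.200 and 0.168 with NMN. Control samples were the lowest and NMN samples the highest, with no overlap between any groups. The means of 0.0653 ± 0.0105, 0.123 ± 0.0222 and 0.184 ± 0.0229 FPKM (SD, n = 2) make ratios to control of 1.89 under heat stress and 2.82 with NMN. On the log2(FPKM + 1) scale the fold change of DNM1L with NMN was 0.15 (SE 0.050), called with an unadjusted P of 0.0293 and not at an adjusted P (0.137, limma). For heat stress it was 0.076 (SE 0.050), with an adjusted P of 0.503 in limma. The gene shares 1126 exon bases, 27.3% of its exon sequence, with YARS2, a mitochondrial tyrosyl-tRNA synthetase on the other strand, and the library kit does not mark strand. YARS2 was at 3.27 and 2.65 FPKM in control, 3.44 and 4.26 under heat stress and 4.17 and 3.22 with NMN, many times the level of DNM1L, so the DNM1L values are uncertain, and the part of YARS2 in them was not tested. The call of DNM1L was also lost without control replicate 2 (unadjusted P of 0.0583 in limma), without NMN replicate 1 (0.0810) and without a variance trend (0.0822), and it held in 11 of 14 alternatives.

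MFF (chr15:128768441-128799355, plus strand, 1 annotated transcript of 1650 nt), the main receptor of DNM1L at the outer membrane, was at 4.49 and 4.12 FPKM in control, 7.12 and 5.09 under heat stress and 6.80 and 6.71 with NMN. Both control samples were below the other 4, and the heat-stressed samples lay far apart, on either side of the NMN samples. Mean levels were 4.31 ± 0.261, 6.11 ± 1.43 and 6.75 ± 0.0663 FPKM (SD, n = 2). With NMN the log2 fold change of MFF over control was 0.55 (SE 0.16), called with an unadjusted P of 0.0172 and with an adjusted P of 0.0639 in limma. For heat stress it was 0.41 (SE 0.16), and its unadjusted P of 0.0501 and adjusted P of 0.220 in limma did not pass. This value rested on the heat-stressed samples: it was 0.61 without heat-stressed replicate 2 and 0.20 without replicate 1.

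The remaining receptors were low and variable. MIEF1 (chr5:8748171-8762087, minus strand) was at 0.620 and 0.219 FPKM in control, 0.308 and 0.514 under heat stress and 0.263 and 0.912 with NMN, and all groups overlapped. A stretch of 2254 nt on chromosome 1 (chr1:66577876-66580122), annotated as LOC100514932, matches the MIEF1 transcript at 98.3% identity. That copy was itself listed at 0.273 to 1.91 FPKM, so the division of reads between the 2 loci is uncertain and so are the MIEF1 values. MIEF2 (chr12:60461373-60475695, minus strand), at 0.300 and 0.476 FPKM in control, 0.602 and 0.465 under heat stress and 0.393 and 0.469 with NMN, overlapped between all groups as well. The adjusted P of both genes lay between 0.539 and 1 in limma over the 3 comparisons.

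FIS1 (chr3:8938250-8942102, minus strand, 1 annotated transcript of 979 nt) was at 0.266 and 0.528 FPKM in control. It was listed at 0 in heat-stressed replicate 1 and at 0.156 in replicate 2, and at 0.0902 and 0 in the NMN samples. Both control samples exceeded the other 4. FIS1 was called as lower in limma, with log2 fold changes of -0.37 (SE 0.13, adjusted P of 0.282) under heat stress and -0.41 (SE 0.13, adjusted P of 0.120) with NMN, and neither held after adjustment. The first call was lost without control replicate 2 (unadjusted P of 0.131), without heat-stressed replicate 1 (0.149) and without either NMN replicate (0.0561 and 0.0566), and it held in 7 of 14 alternatives, being lost also with a pseudocount of 0.1 FPKM (0.0548), quantile normalization (0.0505) and only the compared groups in the fit (0.0556). The second held in 12 of 14 and was lost without control replicate 2 (0.0905) and without NMN replicate 2 (0.107). A long noncoding RNA on the other strand, LOC102164200, shares 119 exon bases with FIS1, and it too was listed at 0 in heat-stressed replicate 1. Relative depth was 86.5% and 100% in control, 63.4% and 73.6% under heat stress and 76.4% and 68.2% with NMN. Both control libraries were thus the deepest, and FIS1 was at 0 in the libraries with the lowest depth. The part of depth in the low FIS1 values was not tested.

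The levels of the receptors could also be set against each other within each library. MFF made up 79.1% and 77.1% of the summed FPKM of the 4 receptors in control, 88.7% and 81.8% under heat stress and 90.1% and 82.9% with NMN, higher in all 4 heated samples than in either control sample. This share carries the uncertainty of MIEF1 and the values of FIS1 listed at 0. MIEF1 and its copy LOC100514932 summed to 1.48 and 0.637 FPKM in control, 2.21 and 1.12 under heat stress and 0.536 and 1.35 with NMN. A share with the copy counted in was not tested. MFF exceeded DNM1L by a factor of 61.8 and 71.3 in control, 51.3 and 47.4 under heat stress and 33.9 and 40.0 with NMN. No groups overlapped in this ratio, which carries the uncertainty of DNM1L. The ratio of MFF to MFN1, the best expressed fission and fusion genes, was 2.75 and 2.09 in control, 2.51 and 1.77 under heat stress and 2.12 and 2.08 with NMN, and all groups overlapped. The summed FPKM of all 9 genes was 14.5 and 13.9 in control, 17.9 and 17.1 under heat stress and 20.0 and 20.3 with NMN.

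**Figure D3:**
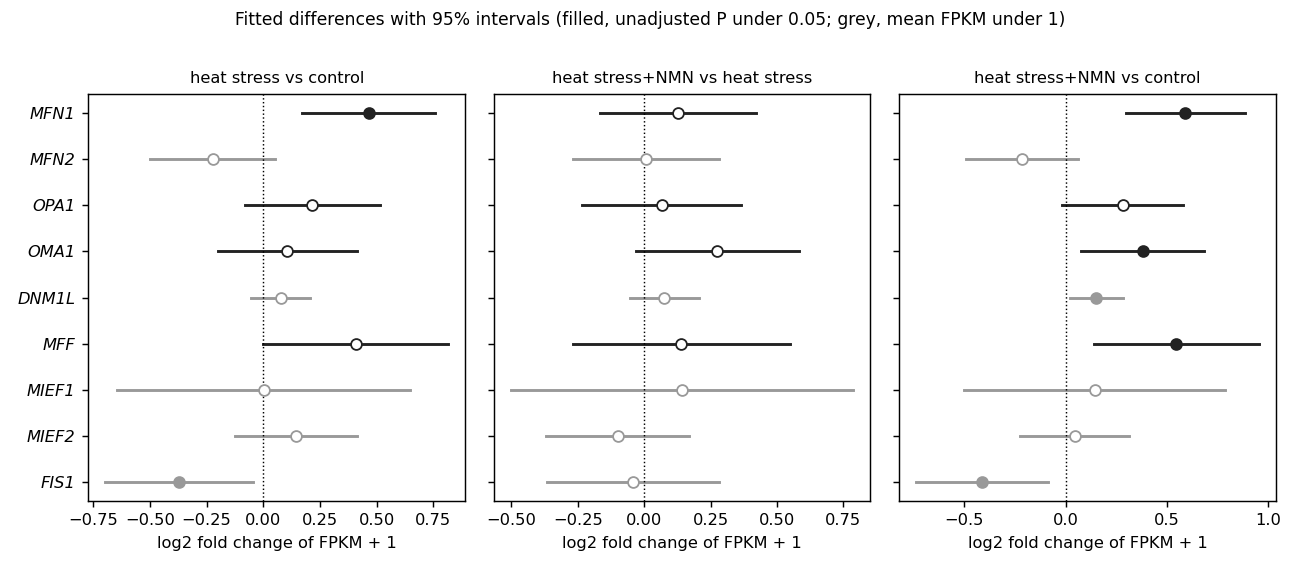
Log2 fold changes of FPKM + 1 (x axes) with 95% intervals for the 9 genes (y axis) in the 3 comparisons, as fitted with limma; filled points had an unadjusted P under 0.05 and grey points a mean under 1 FPKM. With heat stress MFN1 (0.46) and FIS1 (-0.37) are filled, with NMN against heat stress none is, and with NMN against control MFN1 (0.59), OMA1 (0.38), DNM1L (0.15), MFF (0.55) and FIS1 (-0.41) are.

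Counted over the genes, heat stress against control called 1 of the 4 members tested at a mean of at least 1 FPKM, MFN1, where 22.8% of all genes tested were called. At a mean of at least 0.1 FPKM it called 2 of 9, MFN1 as higher and FIS1 as lower, beside 16.0% of all genes. The samples of the 2 groups did not overlap for 6 of 9 members, 4 higher and 2 lower, and for 47.1% of all genes at that mean. No gene tested reached an adjusted P under 0.05 in this comparison, although 1074 had an unadjusted P under 0.05 in limma. The median log2 fold change was 0.31 over the 4 tested members and 0.049 over all genes tested. At a mean of at least 0.1 FPKM it was 0.11 over the 9 members and -0.0025 over all genes.

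NMN against heat stress called none of the 4 members, and none of 9 at the lower mean, where 13.6% and 9.96% of all genes were called. MFN1, OMA1 and DNM1L were higher in both NMN samples than in both heat-stressed samples, 3 of 9 members beside 24.0% of all genes that were higher in this way. No member was lower without overlap, and 44.8% of all genes did not overlap in either direction. Of all genes, 641 had an unadjusted P under 0.05 in limma and 0 an adjusted P under 0.05. The 95% intervals of the log2 fold changes reached from -0.27 to 0.55 for MFF and from -0.031 to 0.58 for OMA1, so differences of such size between heat-stressed oocytes with and without NMN could not be told from none.

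NMN against control called 3 of the 4 members, MFN1, MFF and OMA1, all as higher, beside 41.3% of all genes. MFN1 alone had an adjusted P under 0.05, as had 21.5% of all genes tested. At a mean of at least 0.1 FPKM, 6 of 9 members were called, with OPA1 and DNM1L higher and FIS1 lower in addition, beside 27.8% of all genes. In that wider fit the adjusted P of MFN1 was 0.0555 in limma, and 0 of 9 members passed. The groups did not overlap for 7 of 9 members and for 60.6% of all genes. The median log2 fold change was 0.46 over the 4 members and 0.11 over all genes tested. In the wider fit it was 0.15 over the 9 members and -0.010 over all genes. The calls of MFF and OMA1 were both lost without control replicate 2, without NMN replicate 1 and without NMN replicate 2, each of which left MFN1 as the only member called of the 4. The call of OMA1 was also lost with equal totals (unadjusted P of 0.0645 in limma). The 3 comparisons share samples, so that calls in 1 are not independent of calls in another.

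Of 87 further genes of the pathway, listed by function, 85 were in the table and 30 were tested. Heat stress against control called 5 of the 30 (16.7%, with 22.8% of all genes), NMN against heat stress called 4 (13.3%, with 13.6%) and NMN against control called 12 (40.0%, with 41.3%), 8 as higher and 4 as lower. These shares of unadjusted calls were near those of all genes. In the last comparison 10 of the 30 had an adjusted P under 0.05 in limma, beside 21.5% of all genes, and the median log2 fold change was 0.19 for the 30 and 0.11 for all genes tested.

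Among regulators of outer membrane fusion, 4 of 12 genes were tested. With NMN against control all 4 passed at an adjusted P under 0.05, 2 higher and 2 lower, beside 21.5% of all genes tested. Only the 3 with the smallest P in that comparison are described here. MTCH2, an outer membrane protein insertase that promotes fusion, was at 2.43 and 2.09 FPKM in control, 4.15 and 3.33 under heat stress and 4.34 and 4.27 with NMN, and rose over control with NMN by a log2 fold change of 0.71 (adjusted P of 0.0281, limma). PINK1, the kinase that marks damaged mitochondria and their mitofusins for removal, was at 1.74 and 2.40 FPKM in control, 0.837 and 1.35 under heat stress and 0.555 and 0.686 with NMN. It fell by 0.91 on the log2 scale with NMN against control (adjusted P of 0.0294, limma). Heat stress against control already called MTCH2, by 0.54 (unadjusted P of 0.00878, adjusted P of 0.137, limma), beside 22.8% of all genes. PINK1 was likewise called there, by -0.56 (unadjusted P of 0.0253, adjusted P of 0.183, limma). NMN against heat stress called neither MTCH2 nor PINK1. PLD6, an outer membrane phospholipase that aids mitofusins and is also needed for piRNA production in germ cells, was at 3.20 and 2.89 FPKM in control and 2.91 and 1.59 under heat stress, but at 0.128 and 0.477 with NMN. It fell by 1.65 on the log2 scale against control (adjusted P of 0.0210, limma). Against heat-stressed oocytes its log2 fold change was -1.30, with an unadjusted P of 0.00211 and an adjusted P of 0.222.

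Among the inner membrane proteases and scaffolds of OPA1, PHB2 was the only gene called, of 4 tested of 11 listed. PHB2, a prohibitin that holds OPA1 in its long form, was at 5.80 and 6.15 FPKM in control, 4.26 and 4.16 under heat stress and 2.49 and 2.82 with NMN, without overlap. It fell by 0.93 on the log2 scale with NMN against control (adjusted P of 0.0210, limma). Its log2 fold change was -0.42 for heat stress against control (adjusted P of 0.142) and -0.51 for NMN against heat stress (adjusted P of 0.222), both called by the unadjusted P only.

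Of 22 regulators of fission, 12 were tested. NMN against control called 4 as higher and 1 as lower, beside 41.3% of all genes called in either direction. Only the 3 with the smallest P in that comparison are described here. MTFR1, a mitochondrial fission regulator, was at 4.92 and 5.30 FPKM in control, 6.97 and 7.85 under heat stress and 7.63 and 8.71 with NMN, and rose with NMN against control by a log2 fold change of 0.58 (adjusted P of 0.0329, limma). SPIRE1, an actin nucleator that acts in fission and in the asymmetric division of the oocyte, was at 2.48 and 2.29 FPKM in control, 2.90 and 2.98 under heat stress and 4.11 and 3.80 with NMN, with a log2 fold change of 0.55 (adjusted P of 0.0296, limma). AKAP1, which anchors protein kinase A at the outer membrane, where it restrains DNM1L, was at 3.98 and 2.84 FPKM in control, 2.21 and 2.64 under heat stress and 1.08 and 1.44 with NMN. It fell by 0.96 on the log2 scale (adjusted P of 0.0272, limma). Heat stress against control called MTFR1 alone of the 12, by 0.46 (unadjusted P of 0.0117, adjusted P of 0.142, limma), beside 22.8% of all genes. NMN against heat stress called SPIRE1, by 0.33 (unadjusted P of 0.0264, adjusted P of 0.350, limma). That comparison also called AKAP1, by -0.61 (unadjusted P of 0.0163, adjusted P of 0.326, limma), beside 13.6% of all genes.

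Of 16 genes of mitochondrial transport, 5 were tested, and NMN against control called 2 as higher and 0 as lower, again beside 41.3% of all genes. KIF5B, the heavy chain of the kinesin that carries mitochondria along microtubules, was at 1.46 and 1.62 FPKM in control, 2.43 and 2.67 under heat stress and 2.95 and 3.25 with NMN, and rose by a log2 fold change of 0.69 (adjusted P of 0.0237, limma). RHOT1, the outer membrane GTPase that couples mitochondria to that motor, was at 3.45 and 3.47 FPKM in control, 4.23 and 4.17 under heat stress and 5.43 and 4.77 with NMN, and rose by 0.45 (adjusted P of 0.0447, limma). Heat stress against control called KIF5B alone of the 5, by 0.49 (unadjusted P of 0.00724, adjusted P of 0.130, limma), beside 22.8% of all genes. NMN against heat stress called 0 of the 5, beside 13.6% of all genes. In the 13 genes of the MICOS complex and cristae, 1 was tested and 0 were called. Of 13 genes for import, porin and matrix proteins, 4 were tested and 0 were called in any comparison. Their median log2 fold changes were 0.029, 0.011 and -0.092 for heat stress against control, NMN against heat stress and NMN against control. Of all genes, 22.8%, 13.6% and 41.3% were called in these comparisons. Mitochondrial content was not measured here.

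**Figure D4:**
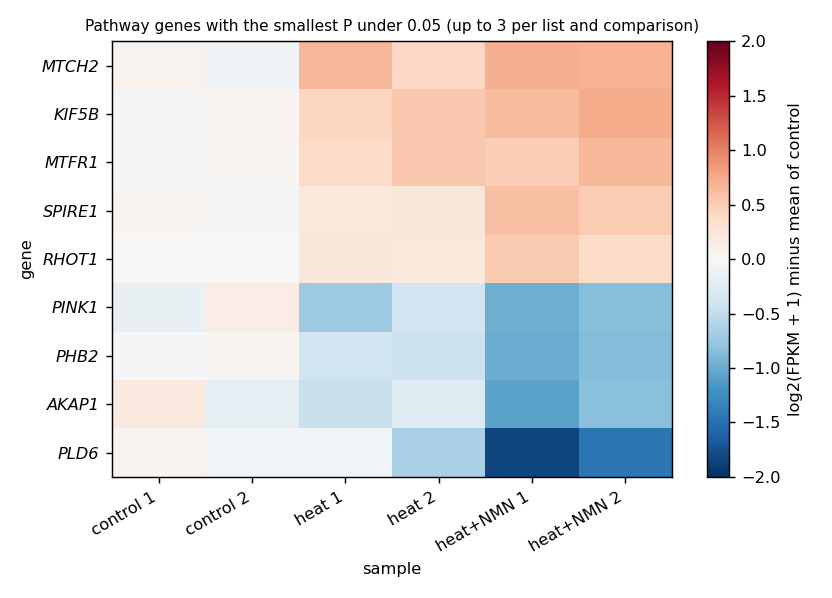
Level of 9 pathway genes (y axis) in the 6 samples (x axis), coloured by log2(FPKM + 1) minus the mean of the control samples, for up to 3 genes with the smallest unadjusted P under 0.05 per list and comparison. MTCH2, KIF5B, MTFR1, SPIRE1 and RHOT1 are red and PINK1, PHB2, AKAP1 and PLD6 blue in the NMN samples, where PLD6 is at 0.128 and 0.477 FPKM.

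For each of the 4 tested members, the 2 genes whose log2(FPKM + 1) followed it most closely over the 6 samples were found. They were CAB39 and KHDRBS1 for MFN1 (Pearson r of 0.9921 and 0.9906), ALG10 and FBXO43 for OPA1 (0.9969 and 0.9952), CAMSAP1 and SCN4B for OMA1 (0.9984 and 0.9973), and GNPNAT1 and PTBP2 for MFF (0.9955 and 0.9918). With 6 points that share 3 groups many genes reach a high r with a member. An r over 0.95 was found for 111 of 4713 genes with MFN1, 207 with OPA1, 153 with OMA1 and 59 with MFF. Between members r was 0.904 for MFN1 and OPA1, 0.849 for OPA1 and OMA1 and 0.837 for MFN1 and MFF. It was 0.753 for OPA1 and MFF, 0.713 for MFN1 and OMA1 and 0.615 for OMA1 and MFF.

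As a check of the label, 10 of 12 oocyte markers had a mean of at least 1 FPKM, and their summed level was 2832 to 3543 FPKM. That sum was 3351 and 3543 in control, 3266 and 3284 under heat stress and 3076 and 2832 with NMN. Single markers differed in either direction, more of them downward. BMP15 and DPPA3 were higher in every heated sample than in either control sample. ZP3, ZP4, GDF9, ZAR1, NLRP5, FIGLA and MOS were lower in every heated sample, and ZP2 and DAZL overlapped. ZAR1 was at 17.3 and 23.8 FPKM in control, 11.8 and 13.8 under heat stress and 4.30 and 2.84 with NMN. BMP15, the largest part, was at 1606 and 1646 FPKM in control, 1861 and 1940 under heat stress and 1820 and 1751 with NMN. GDF9 was at 732 and 777 FPKM in control, 477 and 532 under heat stress and 435 and 353 with NMN. Of 17 markers of cumulus and granulosa cells, which surround the oocyte, 1 (INHBA, 4.35 to 16.4 FPKM) had a mean of at least 1 FPKM and AMH was listed at 0 in all 6 samples. Their sum was 17.4 and 13.9 FPKM in control, 10.7 and 8.58 under heat stress and 5.59 and 11.5 with NMN, most of it INHBA. The other 15 markers in the table summed to 1.05 and 0.763 FPKM in control, 0.557 and 2.13 under heat stress and 1.24 and 1.32 with NMN, with overlap between control and heat-stressed samples and both NMN samples above both control samples. Genes placed on the mitochondrial chromosome took 66.4% and 61.7% of the summed FPKM in control and 62.4% and 71.6% under heat stress. With NMN they took 74.2% and 74.7%, the highest values by this count. A gene placed elsewhere, which the alternative with equal totals also set aside as mitochondrially encoded, is not in the count. The summed FPKM was 290136 in heat-stressed replicate 1 and 163929 to 239211 in the other samples. The share in that replicate is therefore uncertain. The part of these differences in the results above was not tested.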

How the data were processed

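RNA-seq values of 6 samples, 2 per group, were used, with groups taken from the labels. The authors deposited FPKM for 29861 genes, and the submitters' processing notes name Cufflinks 2.2.1, Cuffnorm and Cuffdiff. Reads were aligned to the pig genome, and the gene coordinates matched Sscrofa11.1. The deposited table also holds the authors' log2 fold changes, p-values and q-values, and 2 further files hold lists of called genes with FPKM per group; none of these was used. Absolute depth is unknown, but steps between low values gave relative depths of 63.4% to 100% of control replicate 2, so no counting interval is given.

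FPKM + 1 was log2-transformed. Genes with a mean of at least 1 FPKM were fitted with limma 3.58.1 in R 4.3.3, with 1 model of 3 groups, empirical Bayes moderation, a variance trend and Benjamini-Hochberg adjustment. The fit was tested on simulated data. Members under that mean were fitted at a mean of at least 0.1 FPKM, a choice made after seeing the data. The members, lists and tests were chosen with earlier results of these data known. Named genes were all 9 members, up to 3 genes with the smallest P under 0.05 per list and comparison, and the 2 genes most correlated with each tested member. Copies were sought with blastn 2.17.0 (at least 150 nt at 90% identity), and other steps used Python 3.11.15. Alternatives were other pseudocounts, minimum means, scalings and model terms, a fold threshold, and leaving out each sample.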

Additional observations from a re-analysis of the deposited data

How the results depend on the processing

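The count of members called with heat stress against control was 1. It was 2 with a pseudocount of 0.1 FPKM, with a minimum mean of 0.1 FPKM, with no minimum, with quantile normalization, equal medians or equal totals without mitochondrially encoded genes, 0 with a minimum mean of 5 FPKM or an absolute log2 fold change over 1, and 1 to 2 when each sample was left out in turn, 2 being reached without heat-stressed replicate 2. With NMN against control the count was 3. It was 4 with quantile normalization or without a variance trend, and 2 with equal totals without mitochondrially encoded genes. It was 6 with a minimum mean of 0.1 FPKM or none, 0 with an absolute log2 fold change over 1, and 1 to 3 with each sample left out, 1 being reached without control replicate 2, NMN replicate 1 or NMN replicate 2. With NMN against heat stress it was 0 in all alternatives run.

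All genes called were 1074 with heat stress against control and 1865, 468 and 2388 with minimum means of 0.1, 5 and 0 FPKM, 74 with the fold threshold and 648 to 1015 with a sample left out, the lowest without control replicate 2. For NMN against heat stress the 641 became 1161, 266, 1557 and 71, and 327 to 701 with a sample left out (327, 418 and 383 without NMN replicate 1, heat-stressed replicate 1 and NMN replicate 2). For NMN against control the 1948 became 3236, 791, 3700 and 309, and 1233 to 1941 with a sample left out, the lowest without NMN replicate 1. Fewer genes are tested at a higher minimum. Otherwise the cause was not tested. The split of higher and lower calls was 598 and 476 for heat stress against control but 333 and 488 with equal totals, and 337 and 304 for NMN against heat stress but 218 and 310 with quantile normalization, 275 and 336 with equal medians and 257 and 263 with equal totals.

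Of 396 alternatives of 27 fold changes, 12 turned the direction, none of them of a called value. MIEF1 under heat stress went to -0.0050 with equal totals and from -0.20 to 0.21 with a sample left out. With a sample left out, NMN against heat stress ranged from -0.068 to 0.082 for MFN2, -0.067 to 0.35 for MFF, -0.16 to 0.44 for MIEF1 and -0.15 to 0.062 for FIS1, and NMN against control from -0.15 to 0.44 for MIEF1 and -0.046 to 0.14 for MIEF2. MFF also passed with heat stress in 6 of 16 alternatives.

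With the replicate number as a replicate block, 2 members were called with heat stress (MFN1 and MFF), while MFN2 had unadjusted P of 0.0423 and 0.0464 against control in limma. Deviations of same-numbered samples correlated at -0.032, -0.014 and 0.0080, so no shift shared by number was seen over all genes tested. With 2 samples per group this cannot tell whether the numbers pair the samples.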
